A study of Mus musculus with 10 samples.

Results

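Control hippocampus of hMapt mice was described gene by gene as it stands without the AAV-circTau6 vector that the study injected into its other animals. The material was the 5 libraries labelled con-1 to con-5, chosen by their treatment label, control, out of 10 libraries in all. They are called controls 1 to 5 here. Every one came from hippocampus of a mouse 6 months old with the genotype hMapt. The protocol speaks of control-injected hMAPT mice, tissue was taken 80 days after injection, and the content of the control injection is not stated in the labels. The labels also do not say which promoter drives the human gene, or whether a library is 1 animal or a pool, so spread is called spread between libraries. It may be partly technical.

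The hippocampus turns experience into memory and is among the regions that tau pathology reaches early. Its excitatory cells lie in sheets: granule cells of the dentate gyrus send mossy fibres to CA3 pyramidal cells, which project to CA1, and CA1 projects to the subiculum. Interneurons that release GABA, astrocytes, myelinating oligodendrocytes, microglia and blood vessels fill the space between. The choroid plexus, which makes cerebrospinal fluid, and the meninges touch the hippocampus and can come away with it at dissection. Tau, the product of Mapt, is a protein that binds microtubules in axons.

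Total RNA was depleted of ribosomal RNA and sequenced as strand-specific pairs of 150 base reads. The libraries held between 15051882 and 17643921 gene counts, and 3 counts were worth 0.170 to 0.199 CPM (counts scaled to a common library total). Of 21956 genes in the table, 4265 had no count in any of the 5 libraries and 15349 had a count in every one. A mean of at least 1 TPM (a level scaled for gene length and library size) was reached by 13958 genes, at least 10 TPM by 9790, at least 100 TPM by 1654 and at least 1000 TPM by 60. Ranked over the 13958 genes with a mean of at least 1 TPM, any pair of libraries had a Spearman rho between 0.982 and 0.990. This is a description across genes, which are not independent, and it carries no test. Of the 14306 genes with a mean count of at least 10, between 359 and 648 differed over 2-fold within a pair. The 4 pairs with control 2 were the highest, at 606 to 648. Control 1 had 15452562 counts and control 2 had 17028592, so neither was the shallowest or the deepest.

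A small number of genes made up much of the TPM in the table. Of 12 listed long noncoding RNAs only 1, Snhg11, had a row, and Malat1 and Meg3 had none. Ranks and shares are therefore over the genes in the table and not over all RNA. The 10 most abundant took 23.5% ± 0.282 (SD, n = 5 here and throughout) of all TPM, the 100 most abundant 36.1% ± 0.403 and the 1000 most abundant 60.7% ± 0.301. The order was stable: of the 100 genes highest by mean, between 97 and 100 were in the top 100 of each library. The 13 protein-coding genes of the mitochondrial genome were all among the 30 highest, and together they held 24.8% ± 0.289 of TPM. They held 10.2% ± 0.126 of counts, a scale that, unlike TPM, does not divide by gene length. The gene mt-Co1, a catalytic subunit of cytochrome c oxidase, stood first at 45838, 46743, 46621, 45284 and 45282 TPM in controls 1 to 5. The lowest of the 13 was mt-Atp8, an ATP synthase subunit, at 3384, 3669, 3563, 3827 and 3431 TPM. Without the mitochondrial genes the 100 most abundant genes took 16.2% ± 0.394 of what remained.

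**Figure D1:**
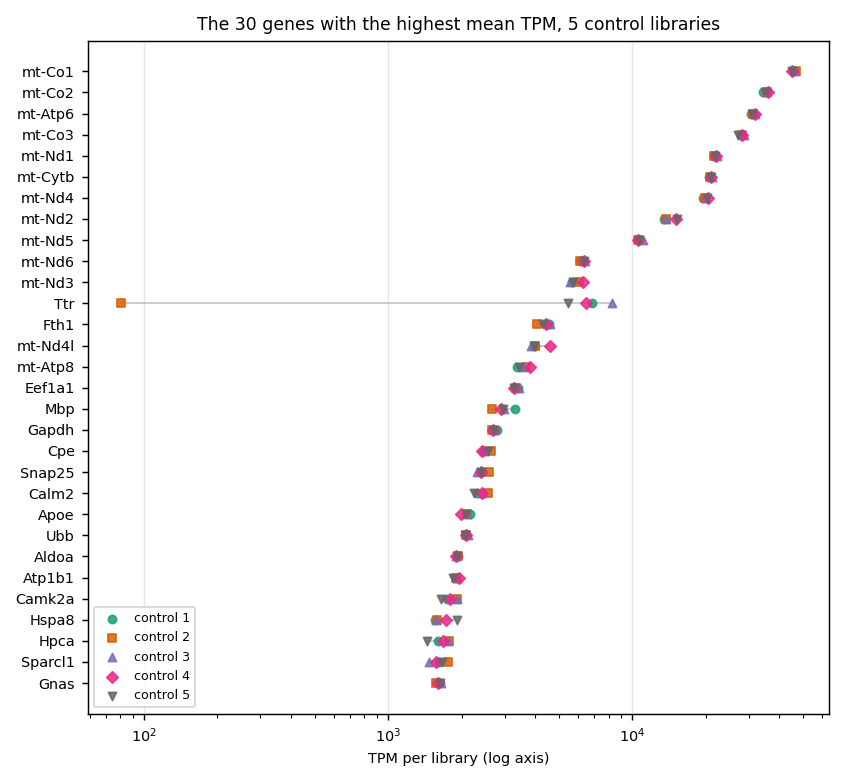
TPM of the 30 genes with the highest mean, by library, on a log axis. Each symbol is 1 control library and grey lines join the lowest and the highest. In 29 of the 30 genes the highest library was at most 1.5 times the lowest, and the exception was Ttr, which was 80.8 TPM in control 2 and 5445 to 8237 TPM in the others.

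The other 17 of the 30 were nuclear genes, and most are known from neurons, glia or all cells. Ttr, the thyroid hormone carrier made by choroid plexus, was the highest of them by mean, but its level was 6866, 80.8, 8237, 6469 and 5445 TPM, and control 2 was far below the others. Fth1, the iron-storing ferritin heavy chain, followed at 4577, 4087, 4595, 4429 and 4320.2 TPM. Its spread was small. Neuronal genes in the top 30 were Snap25, a protein of the vesicle fusion complex, at 2423 ± 103 TPM, Camk2a, the calcium-dependent kinase of excitatory synapses, at 1803 ± 115 TPM, Hpca, a calcium sensor of hippocampal neurons, at 1654 ± 133 TPM, and Calm2, a calmodulin gene, at 2393 ± 123 TPM. Cpe, which trims neuropeptide precursors, reached 2513 ± 84.8 TPM and Atp1b1, a subunit of the sodium pump, 1903 ± 41.1 TPM. Glia were represented by Mbp, a structural protein of myelin, at 3305, 2654, 2985, 2911 and 2949 TPM, by Apoe, the lipid carrier of astrocytes, at 2166, 2106, 2107, 1988 and 2091 TPM and by Sparcl1, an astrocyte-secreted protein, at 1616 ± 110.0 TPM. Of these, Mbp was lowest in control 2 and highest in control 1, and Apoe was within a narrow band in all libraries. The rest were genes that most cells use: Eef1a1 of translation (3354 ± 75.04 TPM), Gapdh and Aldoa of glycolysis (2721 ± 47.6 and 1916 ± 15.04 TPM), Ubb, a ubiquitin gene (2087 ± 19.2 TPM), Gnas, a G protein subunit (1613 ± 30.4 TPM), and the chaperone Hspa8 (1674 ± 157 TPM).

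Next in rank stood Enpp2, which makes the signalling lipid LPA and is known from both oligodendrocytes and choroid plexus, at 1939, 158, 2499, 1770.2 and 1545 TPM. Like Ttr it was lowest in control 2. Also above 1000 TPM were the calmodulin gene Calm3 (1342 ± 41.2 TPM), the calcineurin subunit Ppp3ca (1330.0 ± 97.7 TPM) and the amyloid precursor gene App (1216 ± 11.4 TPM). App ranged only from 1206 to 1235 TPM. Ptgds, a prostaglandin synthase of meninges, choroid plexus and oligodendrocytes, was at 1629.6, 1628, 852, 963 and 1574 TPM. Controls 3 and 4 were low for it and controls 1, 2 and 5 high, without overlap.

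Transcription factors held a small part of the TPM. The authors' table marks 1591 genes as members of a transcription factor family. Of these 1105 had a mean of at least 1 TPM, and all 1591 together held 3.00% ± 0.0379 of TPM. The highest was Thra, the thyroid hormone receptor alpha, at 636, 673, 659, 607 and 621 TPM. It was followed in order by Tcf25 (424 ± 16.7 TPM), Zbtb18, a repressor in cortical neurons (408 ± 30.9 TPM), Hmgb1, a chromatin protein (338 ± 18.1 TPM), Tsc22d1 (332 ± 11.4 TPM), the helix-loop-helix factor Tcf4 (294 ± 13.6 TPM), Cnbp (279.7 ± 5.60 TPM) and Neurod6, a factor of pyramidal neurons (261 ± 20.7 TPM). The CV between libraries was 0.0342 for Thra, and the highest of those named was 0.0836, for Neurod6.

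Markers of cell types were summed by list to see which cells the RNA came from. A sum of TPM is not a share of cells, since it depends on which genes are listed, and in bulk tissue fewer cells of a type and less RNA per cell cannot be told apart. For lists below, members that were highest or lowest in a given library are counted. The share of all genes that were so in that library was not computed. The defining markers Rbfox3 of neurons, Aqp4 of astrocytes, Mog of oligodendrocytes and P2ry12 of microglia were present in 5 of 5 libraries. The highest sums belonged to oligodendrocytes (7515 ± 1237 TPM), astrocytes (6981 ± 189 TPM), all neurons (6936 ± 229.8 TPM) and glutamatergic neurons (6175 ± 375 TPM). Choroid plexus came next by mean but not in control 2, then GABAergic interneurons and endothelial cells. The first place of oligodendrocytes rested on Enpp2, known from choroid plexus too. Without Enpp2 their mean sum was 5933 TPM, below those of astrocytes, all neurons and glutamatergic neurons. In control 2 it was 5485 TPM with Enpp2, also below all of these.

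**Figure D2:**
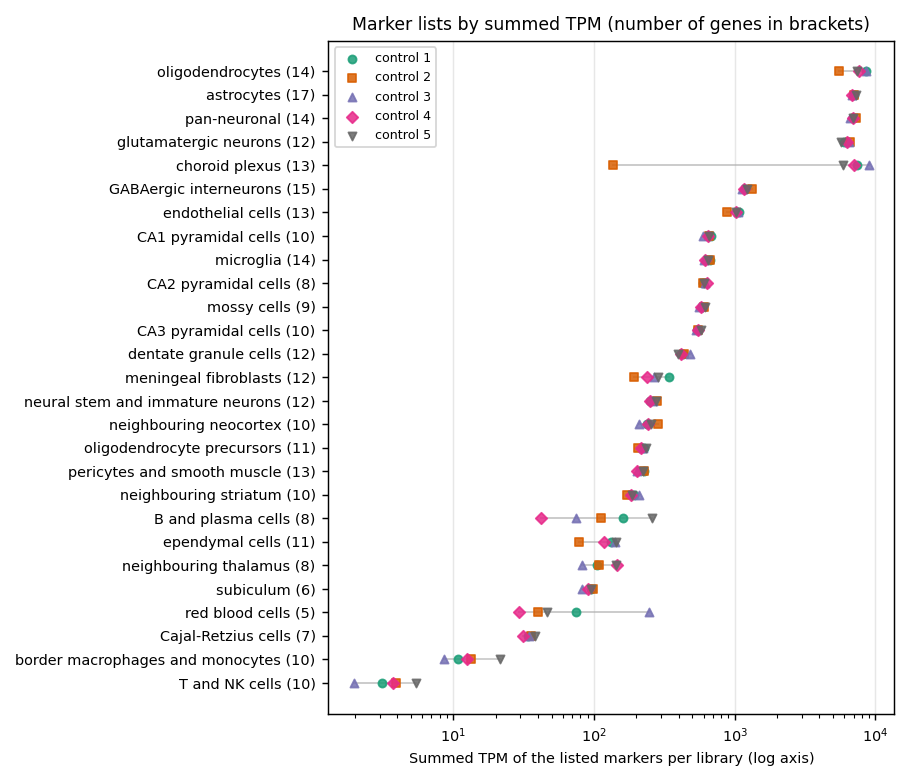
Summed TPM of 27 marker lists in the 5 control libraries, on a log axis, with the number of genes of each list in brackets. Most lists sit within a narrow band, choroid plexus is at 137 TPM in control 2 and at 5912 TPM or more in the others, and B and plasma cells and red blood cells also spread widely.

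The sums of neuronal lists differed little between libraries. The 14 pan-neuronal genes summed to 6911, 7281, 6635, 6943 and 6912 TPM, a CV of 0.0331 (0.0211 without control 2), and 0 of the 14 had a CV between libraries above 0.3. Over all 14306 genes with a mean count of at least 10, 7.1% were above that value, where the CV is that of scaled counts with the counting part subtracted. By abundance the share was 23.5% from 1 to 5 TPM, 4.53% from 5 to 20 TPM and 0.335% to 1.24% in the higher bins. A count of 0 in a list of abundant genes is therefore near the background. Control 2 had the highest sum and control 3 the lowest. Syt1, the calcium sensor of transmitter release, was at 931, 1014, 893, 929.8 and 951 TPM, Rbfox3, the gene of the neuronal nuclear antigen NeuN, at 195, 212, 194, 203 and 194 TPM and Nefl, a neurofilament subunit, at 344, 375, 347, 360.5 and 344 TPM. Glutamatergic markers summed to 5971, 6569, 6459, 6232 and 5645 TPM, with 2 of 12 members above 0.3. Slc17a7, the vesicular glutamate transporter of cortical neurons, was at 800.4, 859, 829.8, 799 and 751 TPM and Nrgn, a postsynaptic calmodulin-binding protein, at 834, 902, 901, 920.1 and 800.4 TPM. For both, control 5 was the lowest library. The members above 0.3 were Slc17a6, the transporter of subcortical glutamatergic neurons, at 17.96, 22.3, 10.6, 28.1 and 26.2 TPM, and Baiap2l1, at 5.53, 0.953, 7.45, 5.40 and 5.91 TPM and lowest in control 2.

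Interneuron markers summed to 1184, 1321, 1134, 1166 and 1227 TPM, highest in control 2 for 11 of 15 genes. None of the 15 had a CV above 0.3, against 7.1% of all genes and 0.335% to 1.24% in the bins from 20 TPM up. The 2 enzymes that make GABA, Gad1 and Gad2, were at 264, 279, 242, 243 and 279 TPM and 86.3, 95.3, 81.97, 84.5 and 93.2 TPM. Gad1 was about 3 times as high as Gad2 in every library. The classes of interneuron were led by the peptide Sst (367 ± 21.5 TPM), followed by Npy (105 ± 11.98 TPM), the cannabinoid receptor Cnr1 (104 ± 2.56 TPM), Pvalb of fast-spiking cells (44.7 ± 4.67 TPM), Lamp5 of neurogliaform cells (41.2 ± 6.21 TPM) and Vip (21.3 ± 3.29 TPM).

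Each hippocampal field was represented. For dentate granule cells the sum was 427, 433, 481, 415 and 394 TPM, and control 3 was highest for 10 of 12 genes. Prox1, the factor that keeps granule cell identity, was at 48.1, 51.1, 58.5, 47.8 and 46.03 TPM and C1ql2, a synaptic organiser of mossy fibres, at 51.7, 53.2, 55.9, 39.2 and 45.8 TPM. CA1 genes summed to 647 ± 28.1 TPM, led by Mpped1 at 156, 155, 134, 151 and 155 TPM. Wfs1, an endoplasmic reticulum protein that marks CA1, ranged more, at 80.9, 92.8, 61.3, 63.02 and 83.1 TPM. CA2 genes summed to 609 ± 17.3 TPM, among them Pcp4 at 229.8, 205, 237, 262 and 266 TPM and Rgs14, which limits plasticity in CA2, at 61.2, 67.97, 76.3, 62.1 and 50.8 TPM. CA3 genes summed to 548 ± 15.6 TPM and mossy cell genes to 588 ± 19.9 TPM. The highest sum was 1.08 times the lowest for CA3 and 1.09 times for mossy cells. Subiculum genes summed to 92.2 ± 6.07 TPM, led by Tle4 at 31.2 ± 1.75 TPM. Some list members are used by other neurons too: Adcy1, an adenylate cyclase, made up 42.4% of the CA2 sum and Nnat, an imprinted proteolipid gene, led the CA3 sum at 274 ± 26.5 TPM. The CV of the CA2 sum was 0.0283, but 0.0660 without Adcy1 and 0.0188 without control 4. For CA3 it was 0.0285, but 0.0561 without Nnat and 0.0129 without control 5. Sv2b made up 40.8% of the mossy cell sum.

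Genes of newborn neurons were low. Dcx, which marks migrating young neurons, was at 7.54, 9.21, 7.09, 7.86 and 9.99 TPM, and Sox11 at 3.30, 4.35, 3.95, 3.69 and 4.42 TPM. The proliferation genes Mki67 and Top2a were at 0.494, 1.19, 1.03, 0.553 and 0.510 and 0.829, 1.58, 0.428, 0.502 and 0.222 TPM, and Eomes, of intermediate progenitors, at 0.180, 0.386, 0.200, 0.138 and 1.82 TPM. Control 5 was highest for Eomes and control 2 for Mki67 and Top2a. Cajal-Retzius genes, of the early-born cells that secrete reelin, summed to 34.8 ± 2.61 TPM. Reln, which is in the interneuron list too, made up 52.7% of that sum.

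Astrocyte genes summed to 7044, 7017, 6777, 6819 and 7245 TPM, a CV of 0.0271. Of the 17, 0 had a CV above 0.3, against 7.1% of all genes and 0.335% to 1.24% in the bins from 20 TPM up. That count is near the background. Slc1a2 and Slc1a3, the glutamate transporters that clear synapses, were at 669.5, 739, 669, 655 and 683 TPM and 340.4, 369, 342, 315 and 352 TPM. Glul, which turns glutamate into glutamine, was at 1393, 1358, 1301, 1395 and 1434 TPM and the water channel Aqp4 at 109.5, 124, 103, 94.5 and 103 TPM. The most variable member was Gfap, the intermediate filament of reactive astrocytes, at 254, 379.8, 230.5, 275 and 341 TPM, highest in control 2 and lowest in control 3. Microglial genes summed to 668, 668, 604, 611 and 643 TPM. P2ry12, the purinergic receptor of resting microglia, was at 73.3, 80.9, 87.3, 72.2 and 61.4 TPM, Cx3cr1 at 29.3, 32.6, 26.1, 28.9 and 30.2 TPM and Tmem119 at 16.3, 18.9, 19.6, 18.6 and 18.4 TPM. None of the 14 microglial genes passed a CV of 0.3, which is near the same background. Oligodendrocyte precursor genes summed to 227, 207, 222, 214 and 234 TPM, with Pdgfra, the growth factor receptor that marks these cells, at 27.9, 24.4, 29.7, 25.7 and 28.6 TPM.

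Oligodendrocyte genes varied more as a list. They summed to 8518, 5485, 8495, 7659 and 7419.6 TPM, and control 2 was the lowest. Without control 2 the mean was 8023 TPM and the CV fell from 0.165 to 0.0707. Of 14 members, only Enpp2, the gene that choroid plexus shares, had a CV above 0.3. Without Enpp2 the sums were 6579, 5328, 5996, 5889 and 5874 TPM and the CV 0.0750 (0.0549 with control 2 left out as well), with control 2 still lowest. The myelin genes varied less: Mobp, a basic protein of myelin, was at 989.8, 719.6, 941, 941 and 901 TPM, Mag at 235, 184, 210.0, 219 and 190.2 TPM and Mog at 60.9, 57.5, 65.1, 53.5 and 59.6 TPM. Control 2 was lowest for Mbp, Mobp and Mag but not for Mog. Opalin, a late oligodendrocyte gene, was lowest in controls 4 and 5, at 33.8, 28.3, 34.3, 18.7 and 20.8 TPM.

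Choroid plexus genes set control 2 apart. The 13 genes summed to 7437, 137, 8947, 7032 and 5912 TPM, and all 13 were lowest in control 2. The CV was above 0.3 for 12 of 13, against 7.1% of all genes. Folr1, the folate transporter of the choroid epithelium, was at 80.2, 0.855, 86.6, 70.2 and 50.6 TPM. Kl, the anti-ageing hormone klotho, was at 104, 13.5, 138, 99.6 and 87.4 TPM and Kcnj13, a potassium channel of that epithelium, at 80.5, 1.97, 101, 80.3 and 61.6 TPM. Control 2 was far below the other 4 libraries for each of the 3. Tmem72 varied least, at 36.7, 25.8, 39.8, 35.4 and 33.9 TPM. Without control 2 the list averaged 7332 TPM with a CV of 0.171, against 0.576 with it.

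Ependymal genes followed in part. They summed to 133, 78.2, 142, 117 and 144 TPM, and control 2 was lowest for 8 of 11. Foxj1, the master factor of motile cilia, was at 10.7, 4.44, 12.7, 9.18 and 11.7 TPM and Rsph1, a radial spoke protein, at 15.02, 3.47, 20.8, 15.9 and 13.2 TPM. Genes of other lists, or of none, that also had their lowest value in control 2 were Igf2, a growth factor of choroid plexus and meninges, at 139.7, 37.9, 134, 111 and 115 TPM, the collagen Col8a1 at 15.7, 0.924, 17.8, 16.00 and 12.6 TPM, the cell cycle inhibitor Cdkn1c at 19.2, 3.35, 17.8, 15.4 and 17.98 TPM, and the serotonin receptor Htr2c at 53.2, 21.96, 58.5, 51.7 and 47.5 TPM. They were named after their values were seen. Over all 1016 genes with a CV above 0.3, control 2 was the library farthest from the median of all 5 on a log2 scale for 348. It was the lowest in 301 of those. Without control 2, 821 genes were above 0.3.

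Vessel and meningeal lists had their own patterns. Endothelial genes summed to 1064, 881, 1054, 1019.8 and 1021 TPM, lowest in control 2, but Bsg, which choroid epithelium also uses, was 59.8% of the sum at 641, 485, 660.0, 629.9 and 599.6 TPM. The endothelial junction gene Cldn5 was at 24.00, 21.1, 22.8, 17.1 and 28.03 TPM and Flt1, a VEGF receptor, at 23.6, 26.4, 23.8, 25.8 and 32.4 TPM. Cldn5 was lowest in control 4 and Flt1 in control 1. Pericyte and muscle genes summed to 217 ± 12.5 TPM, with Rgs5 at 76.4 ± 4.37 TPM and Vtn at 77.6 ± 11.1 TPM. Meningeal genes summed to 344, 192, 265, 237 and 284 TPM and were highest in control 1 for 10 of 12. Igf2, a gene of choroid plexus too, was 40.6% of the sum. It was at 37.9 TPM in control 2 and at 111 to 139.7 TPM in the others. Although its sum was the lowest, control 2 was lowest for 3 of the 12 meningeal genes, and control 3 for 6. Several ran with Ptgds: Fmod, a matrix proteoglycan, was at 18.5, 18.3, 6.95, 7.98 and 16.8 TPM, Slc22a6, an organic anion transporter, at 4.83, 6.18, 2.18, 2.18 and 4.28 TPM and Aldh1a2, which makes retinoic acid, at 12.04, 11.7, 7.10, 7.23 and 10.4 TPM. All 3 were lower in controls 3 and 4 than in controls 1, 2 and 5. Col3a1, a fibrillar collagen, was instead high in control 1 only, at 10.2, 2.04, 1.76, 2.09 and 2.53 TPM.

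Genes used as markers of neighbouring brain regions were present too. Several are also in the lists above: Prkcd of CA3, Calb2 of mossy cells, Slc17a6 of glutamatergic neurons, Lamp5 of interneurons and Rorb of subiculum. The 3 sums depend on the genes listed and do not measure tissue from outside the hippocampus. Their CV was 0.230 for thalamus, 0.113 for neocortex and 0.0717 for striatum. Thalamus markers summed to 106, 108, 82.4, 145 and 143 TPM, highest in controls 4 and 5. Tcf7l2, the factor of thalamic neurons, was at 3.57, 3.19, 2.44, 9.02 and 4.81 TPM, Prkcd, a kinase of thalamic relay cells, at 25.8, 20.2, 22.4, 43.7 and 27.9 TPM, and Calb2 at 29.8, 35.1, 28.3, 29.4 and 59.1 TPM. Control 4 was highest for 7 of 8 genes. Calb2, in mossy cells and interneurons as well, was highest in control 5. Neocortex markers summed to 239.9, 286, 208, 243 and 255 TPM, highest in control 2, with Cux2, of upper cortical layers, at 17.6, 26.6, 11.1, 15.1 and 15.5 TPM and 2 of 10 members above a CV of 0.3, both at under 3 TPM. Of all genes 7.1% were above that CV, and of those from 1 to 5 TPM 23.5%. Striatum markers summed to 188 ± 13.5 TPM, and Ppp1r1b, the dopamine-regulated phosphatase inhibitor, which led them, was at 94.03, 47.6, 101, 83.1 and 83.6 TPM and lowest in control 2.

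Genes of macrophages and T cells were low. Border macrophage and monocyte genes summed to 10.7, 13.4, 8.66, 12.6 and 21.5 TPM, highest in control 5, with Mrc1, the mannose receptor, at 2.50, 3.13, 1.67, 2.47 and 3.42 TPM. T and NK cell genes summed to 3.10, 3.94, 1.98, 3.71 and 5.42 TPM. Their receptor chains Cd3d and Cd3e were at most 0.219 TPM in any library.

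Excitatory receptor subunits kept a nearly fixed proportion from library to library. Among AMPA receptor genes, which carry fast excitation, Gria1 was 45.6% ± 0.888, Gria2 37.4% ± 0.521, Gria3 12.4% ± 0.635 and Gria4 4.63% ± 0.669 of the family TPM, and no 2 of the 4 overlapped. Gria1, the subunit that moves into synapses during potentiation, was at 473, 531, 501, 479.7 and 459 TPM. Among NMDA receptor genes the obligatory subunit Grin1 held 55.5% ± 0.872, and 23.2% of the family's counts, which are not divided by gene length. Grin2b (18.5% ± 0.673) and Grin2a (17.02% ± 0.697), whose balance sets channel kinetics, overlapped in their ranges. Grin2c, Grin3a and Grin2d followed at 20.6 ± 1.33, 16.2 ± 1.45 and 5.64 ± 0.681 TPM, and Grin3b was at 0.245 ± 0.296 TPM. Kainate receptors were led by Grik5 (54.1% ± 1.19), then Grik2 (19.3% ± 0.349) and Grik4 (14.6% ± 0.616), with Grik3 and Grik1 at 16.98 ± 2.65 and 8.80 ± 0.793 TPM. Metabotropic receptors were led by Grm5 (47.5% ± 1.15), coupled to calcium release, ahead of Grm7, Grm3 and Grm2 at 39.1 ± 4.52, 29.9 ± 1.78 and 26.05 ± 1.52 TPM, where Grm3 and Grm2 overlapped. Grm4 and Grm8 were at 7.77 ± 1.97 and 7.30 ± 1.63 TPM, and Grm6, the receptor of retinal bipolar cells, had no count in any of the 5 libraries, which at 3 counts allows up to 0.170 to 0.199 CPM by counting error alone.

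Of the inhibitory receptor genes, Gabra5, a subunit known for its high level in hippocampus, held 17.3% ± 1.24 of GABA-A receptor TPM. Gabrb2, Gabra4, Gabrb1, Gabra3 and Gabra2 were at 93.1 ± 5.92, 85.8 ± 5.57, 62.7 ± 1.51, 57.9 ± 5.52 and 50.4 ± 6.11 TPM. Gabrd, of extrasynaptic receptors in granule cells, was at 22.9, 25.2, 18.4, 27.5 and 21.4 TPM, and Gabrg1 and Gabrg3 at 15.7 ± 1.91 and 10.8 ± 1.64 TPM. Another 6 genes (Gabrr2, Gabrq, Gabre, Gabrr1, Gabrr3 and Gabra6) were at 1.64 TPM or less on average. Of the GABA-B receptor pair, Gabbr1 held 73.8% ± 0.671.

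**Figure D3:**
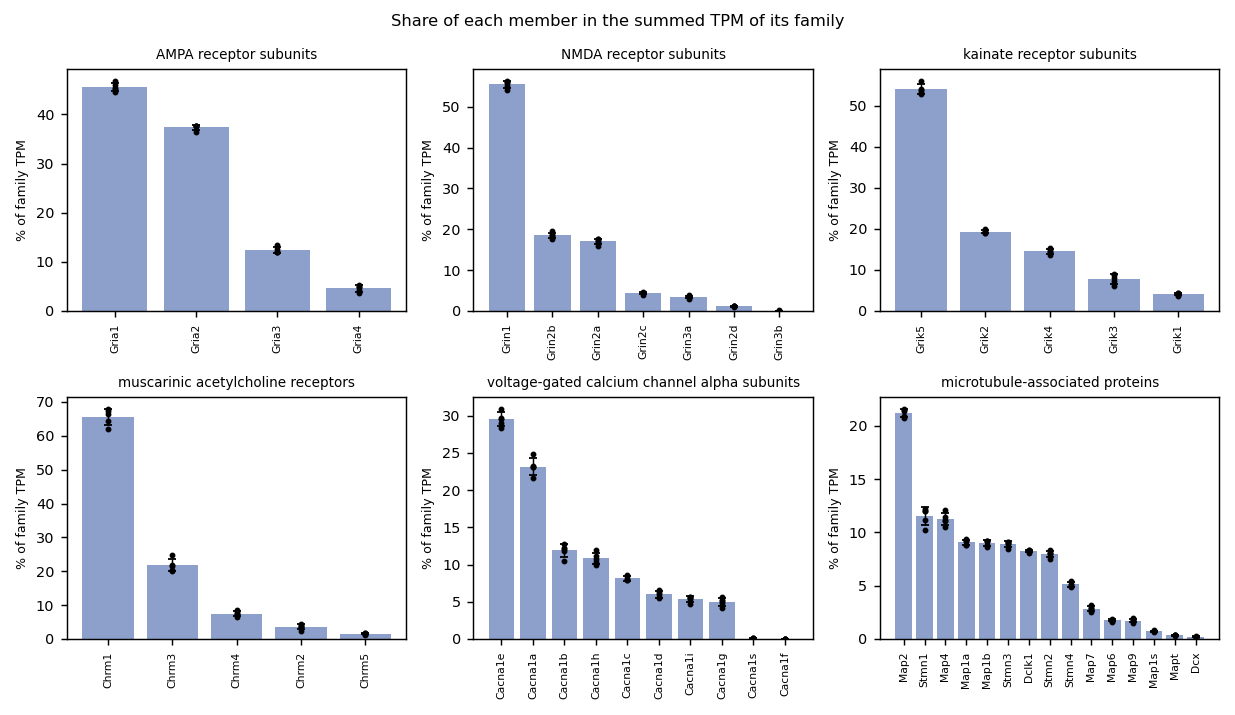
Share of each member in the summed TPM of its family for 6 families. Bars are means over 5 control libraries, error bars are SDs and points are single libraries. Gria1, Grin1, Grik5, Chrm1, Cacna1e and Map2 lead their families by TPM in every library, though by counts Grin1 is 23.2% and Cacna1e 45.4%, and Mapt is second from last among the microtubule-associated proteins.

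Neuromodulator receptors were lower. Chrm1, the main muscarinic receptor of pyramidal cells, held 65.6% ± 2.36 of its family, and Chrm3, Chrm4, Chrm2 and Chrm5 were at 37.6 ± 3.29, 12.98 ± 1.94, 6.19 ± 1.21 and 2.72 ± 0.547 TPM. Serotonin receptors summed to 135, 102, 142, 136 and 132 TPM. Htr2c led by mean, but in control 2 it was at 21.96 TPM, within the range of Htr1a, the inhibitory receptor of pyramidal cells, over all libraries (18.2 to 22.2 TPM). Without control 2, Htr2c held 38.7% of the family, against 35.2% with it. The others were Htr3a, Htr4, Htr2a, Htr5a, Htr5b, Htr7 and Htr1b at 10.6 ± 1.25, 10.3 ± 2.30, 9.29 ± 1.002, 7.59 ± 0.537, 6.67 ± 1.04, 6.41 ± 1.58 and 5.62 ± 0.598 TPM. Htr6 and Htr1f were at 3.23 ± 0.341 and 2.30 ± 0.972 TPM, Htr2b and Htr1d were under 1 TPM and Htr3b had no count. Adrenergic receptors were led by Adra1d (39.2, 36.8, 32.8, 38.98 and 36.3 TPM), and of the dopamine receptors Drd5 was highest (8.95, 9.59, 10.9, 13.7 and 8.08 TPM), ahead of Drd1 (3.02 ± 0.538 TPM) and Drd2 (1.89 ± 0.414 TPM). Drd3 and Drd4 were at 0.0454 ± 0.0622 and 0.0618 ± 0.108 TPM. Of the other adrenergic receptors, Adra2c, Adrb1, Adra2a, Adra1a and Adra1b were at 9.89 ± 0.831, 8.92 ± 0.683, 7.73 ± 1.03, 5.17 ± 0.820 and 3.71 ± 0.729 TPM, and Adrb3 and Adra2b were at 0.712 ± 0.436 and 0.162 ± 0.174 TPM.

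Of the voltage-gated sodium channel genes, the beta subunit Scn3b held 18.5% ± 1.34 of the family TPM. Pore-forming subunits followed it in the order Scn2a (141 ± 7.99 TPM), Scn8a (108 ± 5.34 TPM), Scn1a (57.1 ± 3.68 TPM) and Scn3a (26.4 ± 1.42 TPM). Scn2b and Scn4b were at 117 ± 7.01 and 13.1 ± 1.24 TPM, and Scn9a, Scn11a, Scn4a and Scn10a, which belong to sensory neurons and muscle, at 1.02 TPM or less on average. Calcium channel pores were led by Cacna1e (29.5% ± 0.935 of TPM, 45.4% of counts) of R-type current and Cacna1a (23.2% ± 1.11) of P/Q-type current. Cacna1b, Cacna1h, Cacna1c, Cacna1d, Cacna1i and Cacna1g were at 46.2 ± 3.40, 42.1 ± 3.63, 31.7 ± 1.82, 23.3 ± 1.23, 20.9 ± 1.88 and 19.4 ± 2.65 TPM, and Cacna1s of muscle and Cacna1f of retina were at 0.246 ± 0.125 and 0.0676 ± 0.0861 TPM. Pacemaker channels were led by Hcn2 (68.6% ± 1.09 of TPM, 36.8% of counts), with Hcn3 and Hcn4 at 6.33 ± 1.03 and 0.841 ± 0.400 TPM.

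Synaptic machinery was tight and slightly higher in control 2. The 20 genes of vesicle release summed to 10052, 10756, 9887, 10103 and 10082 TPM, highest in control 2 for 18 of 20, although the highest sum was only 1.09 times the lowest. How many of all genes were highest in control 2 was not computed. Syp, a vesicle membrane protein, was at 927, 1071, 977, 1056 and 1011 TPM, Vamp2, the vesicle fusion protein, at 935, 1020.0, 958, 958 and 954 TPM and Nsf, which recycles fusion complexes, at 675, 719, 664, 667 and 696 TPM. Control 2 also had the least choroid RNA. TPM is a share of a whole, and the part of one in the other was not tested. Postsynaptic genes summed to 6522, 7052, 6993, 6752 and 6298 TPM, lowest in control 5, with the scaffold Dlg4 at 468, 497, 492, 486 and 462 TPM. Of the kinase CaMKII, Camk2a made up 66.4% ± 0.862 and Camk2b 25.3% ± 0.560, and among 14 synaptotagmins Syt1 made up 43.2% ± 0.404. The sodium pump genes summed to 4636, 4647, 4567, 4712 and 4682 TPM, a CV of 0.0117 (0.0239 without the leading member Atp1b1 and 0.00741 without control 3), and Atp1a4, of sperm, had no count.

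Microtubule genes bear on the genotype. Tubulin genes summed to 3983, 4061, 3924, 4073 and 4096 TPM, led by Tuba1a (909.8 ± 27.3 TPM), Tuba1b (637 ± 25.8 TPM), Tubb2a (599 ± 14.2 TPM) and Tubb4a (583 ± 12.9 TPM), where Tuba1b overlapped Tubb2a and Tubb2a overlapped Tubb4a. Near-identical tubulin copies can share reads. Tubb3, the neuronal isotype, was at 177, 186, 151, 181 and 193 TPM, Tuba4a at 356, 366, 359.7, 365 and 362 TPM, and Tubb4b, Tubb5 and Tubb2b at 287 ± 15.7, 252 ± 6.31 and 125 ± 6.27 TPM. The gamma tubulins Tubg2 and Tubg1 were at 40.4 ± 4.79 and 33.02 ± 4.37 TPM, and Tuba1c, Tuba8 and Tubb6 at 8.42 ± 3.51, 7.997 ± 0.981 and 3.99 ± 1.19 TPM. Tuba1c was lowest in control 2, at 2.37 TPM. Map2, the dendritic counterpart of tau (chr1:66175273-66442583 in the GENCODE M21 annotation of GRCm38), was highest of the 15 microtubule-associated genes at 811, 884, 809, 829.6 and 869 TPM. Stmn1, Map4, Map1a, Map1b, Stmn3, Dclk1, Stmn2 and Stmn4 were at 456 ± 44.7, 445 ± 13.8, 360.0 ± 16.2, 356 ± 14.5, 352 ± 10.1, 327 ± 10.4, 317 ± 12.4 and 204 ± 15.3 TPM. Lower still were Map7, Map6, Map9 and Map1s at 112 ± 9.58, 69.3 ± 5.57, 68.4 ± 7.22 and 29.02 ± 2.13 TPM.

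Mapt itself (chr11:104231390-104332090 in the same annotation) was at 14.2, 14.9, 12.96, 14.6 and 12.2 TPM, from 465, 530, 487, 469 and 387 counts. It made up 0.348% ± 0.0271 of the family and ranked below every member but Dcx. The row is the mouse gene's symbol, and whether reads of the human gene can be counted in it was not tested. The state of the mouse gene in these mice was not examined. Its CV was 0.0695. Genes of neurodegeneration, Mapt among them, were even as a list. The 20 summed to 8386, 8337, 8332, 8254 and 8375 TPM, a CV of 0.00618 (0.00318 without control 4). Of the 20, 0 were above 0.3, against 7.1% of all genes and 0.335% to 1.24% in the bins from 20 TPM up. The prion protein gene Prnp was at 727 ± 34.03 TPM, the secretase genes Bace1 and Psen2 at 60.4 ± 4.05 and 13.6 ± 1.21 TPM, and the microglial receptor Trem2 at 14.8, 17.4, 16.3, 14.8 and 13.1 TPM. Apoe, App and Clu, a second lipid carrier, led this list.

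Cck (42.7% ± 1.13) and Sst (26.2% ± 0.470) held most of the peptide TPM. Penk, Tac1, Nts, Cort and Pdyn, the dynorphin gene of granule cells, were at 26.4 ± 3.51, 15.4 ± 4.75, 11.7 ± 2.51, 9.65 ± 2.19 and 9.28 ± 0.639 TPM. Oxt, the hypothalamic hormone oxytocin, had no count in 5 libraries. Bdnf, the activity-dependent neurotrophin, was at 24.7 ± 4.24 TPM and its receptor Ntrk2 at 237, 235, 231, 241 and 259 TPM.

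Gene by gene, the median CV over 14306 genes was 0.0605, with quartiles 0.0284 and 0.120. It was 0.0944 by edgeR's dispersion and 0.0959 as the CV of TPM, which keeps the counting part. The 1016 genes above 0.3 became 3316 with no filter on counts, 1637 by the CV of TPM and 324 at a mean count of at least 50. In the main estimate, for 2028 genes (14.2%) the spread did not exceed counting error. A CV from 5 libraries is itself imprecise: its 95% interval under normal spread runs from 0.599 to 2.87 times the value. The CV fell with abundance, from a median of 0.267 below 1 TPM and 0.178 between 1 and 5 TPM to 0.0826, 0.0462, 0.0364 and 0.0341 in the bins that begin at 5, 20, 100 and 500 TPM. Of 161 genes at 500 TPM or more, 2 were above 0.3, Ttr and Enpp2.

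**Figure D4:**
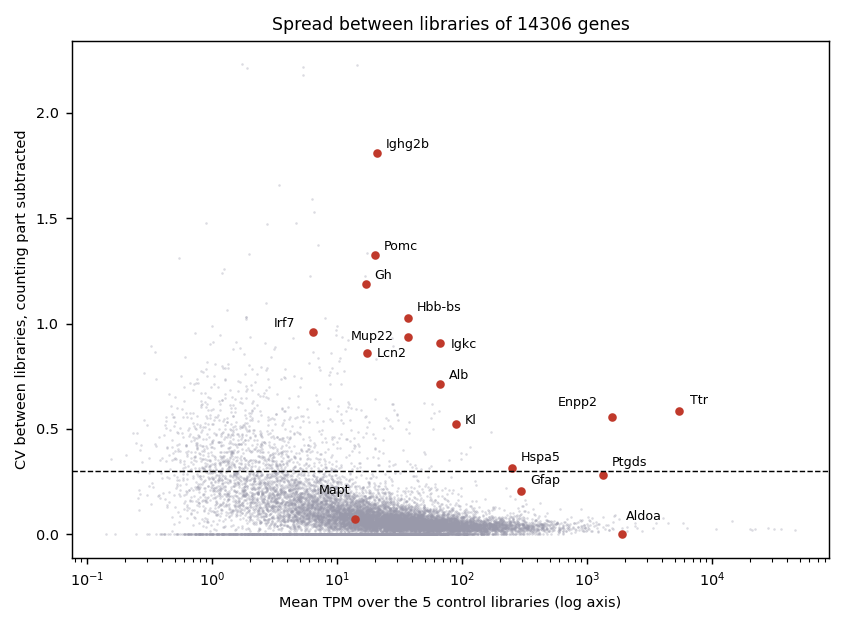
CV between the 5 control libraries against mean TPM on a log axis for 14306 genes with a mean scaled count of at least 10. The dashed line is a CV of 0.3, which 1016 genes (7.1%) exceed, and red points mark named genes.

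Counting error covered the whole spread for 884 genes with at least 20 TPM, which tie at a CV of 0. The 15 of these highest by TPM, an order set by abundance and not by spread, held 8 genes of cytosolic ribosomal proteins, among them Rplp1 at 573, 584, 594, 580.2 and 586 TPM and Rpl19 at 527, 520.4, 505, 507 and 522 TPM. Aldoa, of glycolysis, was at 1928, 1929.7, 1901, 1899 and 1924 TPM. Sumo2, a protein modifier, Rab7, of late endosomes, and Tuba4a were at 406 to 420.1, 391 to 407 and 356 to 366 TPM. As a list, 16 glycolysis genes summed to 11652, 11408, 11449, 11448 and 11515 TPM (CV 0.00836, 0.00387 without control 1 and 0.00348 with TMM-scaled TPM), 22 nuclear respiratory chain genes to 7542, 7312, 7439.9, 7283 and 7216 TPM and 30 cytosolic ribosomal protein genes to 12354, 12323, 12354, 11683 and 11925 TPM. Cholesterol synthesis genes, led by Hmgcs1 at 182 ± 6.46 TPM, summed to 782 ± 28.5 TPM, and the oxidative stress list, led by Sod1 at 311 ± 11.2 TPM, to 1666 ± 77.6 TPM. None of these lists had a member above a CV of 0.3, against 7.1% of all genes and 0.335% to 1.24% in the bins from 20 TPM up.

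The most variable genes were few in kind and ran by library. Of the 25 with the largest CV at 5 TPM or more, 8 were immunoglobulin segments, 4 major urinary proteins, 4 hemoglobins, 2 liver-secreted proteins, 2 pituitary hormones and 2 interferon-induced genes. The other 3 were Pagr1a, Zfp968 and Pam16. By library, 11 of the 25 were highest in control 1, 9 in control 5, 4 in control 3 and 1 in control 4. Members of these families are close copies that can share reads, which makes single members uncertain. The 10 immunoglobulin constant regions summed to 184, 106, 90.7, 39.8 and 339 TPM and the red blood cell list, 4 hemoglobins and Alas2, to 75.01, 40.1, 245, 29.3 and 46.03 TPM. Without control 3 the mean of the red blood cell sums was 47.6 TPM, against 87.1 ± 89.95 TPM with it.

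**Figure D5:**
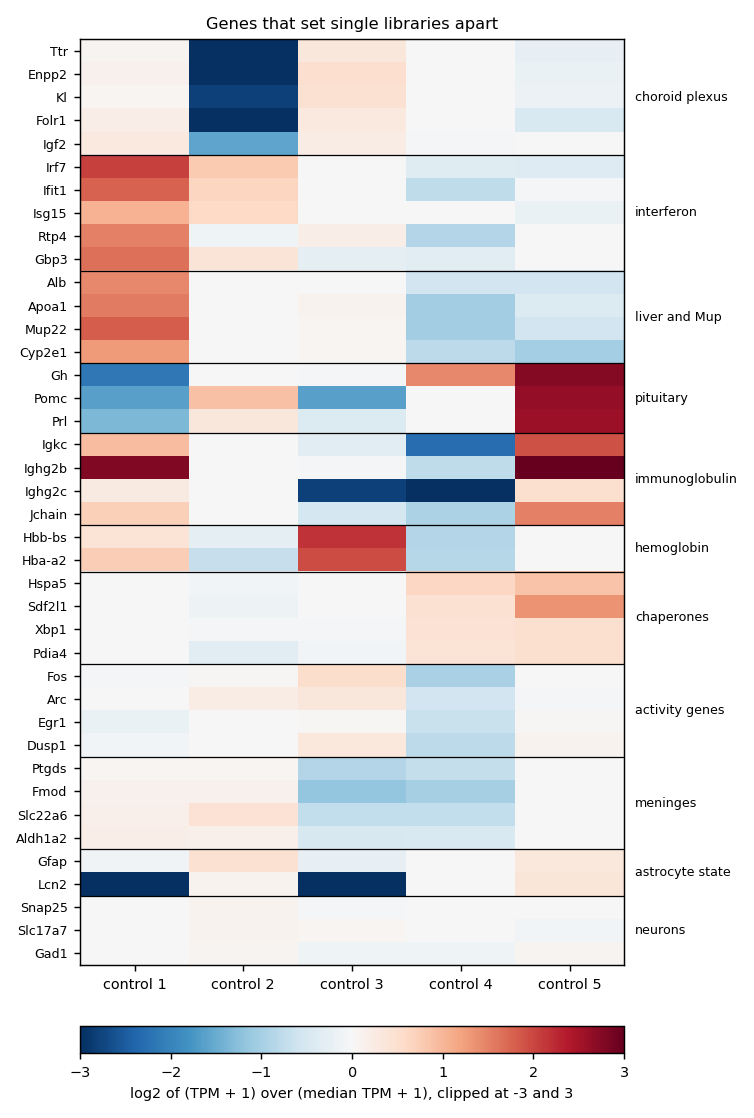
Log2 of TPM + 1 over the median TPM + 1 of the 5 control libraries for genes chosen after their values were seen. Red is above and blue below the median, and strong colours are clipped. Control 2 stands low in choroid genes, control 1 high in interferon and liver genes, control 5 high in pituitary and immunoglobulin genes, control 3 high in hemoglobin, controls 4 and 5 high in chaperones and control 4 low in activity genes.

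Interferon-induced genes were highest in control 1. Interferons reach cells from outside and switch on antiviral genes through factors that include STAT2 and IRF9 and bind the interferon-stimulated response element. The 17 listed genes summed to 483, 238, 235, 185 and 176 TPM, all 17 were highest in control 1 and 16 of 17 had a CV above 0.3, against 7.1% of all genes. Without control 1 the CV of the sum fell from 0.478 to 0.155. Irf7, the factor that amplifies the response, was at 17.3, 6.59, 3.39, 2.41 and 2.35 TPM, Ifit1, which binds viral RNA, at 17.02, 7.33, 4.32, 2.16 and 4.11 TPM and Ifitm3, which blocks viral entry, at 73.5, 35.9, 28.2, 28.7 and 22.7 TPM. Controls 3, 4 and 5 were low and control 2 was second in Irf7, Ifit1 and Ifitm3. Rtp4 was at 20.4, 5.78, 7.63, 3.05 and 6.47 TPM, Isg15, a ubiquitin-like modifier, at 6.38, 4.40, 2.58, 2.56 and 2.12 TPM, and Bst2, which tethers virus particles, at 26.5, 8.93, 13.1, 10.1 and 6.06 TPM. Stat2, the 1 member not above 0.3, was at 20.98, 15.9, 14.3, 15.7 and 13.9 TPM.

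The promoters of 3 of these genes are shown because the element is in them, and because their RNA was highest together in control 1. Each is 250 bases before the start site in RefSeq (GRCm38.p6), read 5′ to 3′ on the gene's strand, with matches to the core of the element (GAAA, any 2 bases, GAAA) or its reverse complement in capitals: Ifit1 at chr19:34640639-34640888 on the plus strand, Isg15 at chr4:156200819-156201068 on the minus strand and Bst2 at chr8:71537473-71537722 on the minus strand.
Ifit1: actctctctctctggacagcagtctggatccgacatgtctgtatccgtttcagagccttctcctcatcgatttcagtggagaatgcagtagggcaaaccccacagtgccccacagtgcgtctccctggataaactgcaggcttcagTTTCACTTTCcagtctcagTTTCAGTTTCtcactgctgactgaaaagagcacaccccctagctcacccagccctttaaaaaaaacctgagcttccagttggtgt
Isg15: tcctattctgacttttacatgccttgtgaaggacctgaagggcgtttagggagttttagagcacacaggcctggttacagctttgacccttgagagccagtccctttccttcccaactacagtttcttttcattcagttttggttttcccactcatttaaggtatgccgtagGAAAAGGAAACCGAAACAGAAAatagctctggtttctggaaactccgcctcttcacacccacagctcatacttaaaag
Bst2: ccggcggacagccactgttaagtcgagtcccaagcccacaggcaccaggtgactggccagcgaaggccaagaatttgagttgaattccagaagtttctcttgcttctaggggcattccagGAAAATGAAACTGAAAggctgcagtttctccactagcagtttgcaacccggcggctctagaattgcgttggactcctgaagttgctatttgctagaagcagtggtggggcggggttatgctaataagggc

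Of the 17 genes, 12 had such a window, and 8 of the 12 held the core on either strand: Bst2, Ifit1, Ifit3, Ifit3b, Isg15, Oas1a, Rsad2 and Stat2. For Ifit3b and Stat2 the bases after the start were not found in the gene's GENCODE M21 transcripts, so where those windows lie is uncertain. In the other 10 windows they were found, and 6 of the 10 held the core. Over all 32851 windows of the same length, 2.98% held it, and of the 27025 genes with a window, 3.46% held it in any. Matches can overlap, as the 3 in Isg15 and the 2 in Bst2 do. A match describes letters and is not a measured binding site.

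Further genes of the same response ran the same way. The 13 guanylate-binding and immunity-related GTPases, which attack vacuoles of intracellular microbes and which were listed after values were seen, summed to 135, 73.7, 64.2, 46.9 and 64.9 TPM, and 12 of 13 were highest in control 1. Gbp3 was at 20.6, 7.92, 4.69, 4.52 and 5.82 TPM and Irgm1 at 23.5, 14.6, 14.4, 11.2 and 10.4 TPM, while Gbp2, at 6.56, 7.26, 4.28, 3.58 and 10.6 TPM, was highest in control 5. Class I presentation genes summed to 577, 505, 415, 381 and 431 TPM, with B2m, the shared light chain, at 338, 287, 231, 224 and 252 TPM and 5 of 13 above 0.3, against 7.1% of all genes. In class II genes there was no such order: they summed to 48.4, 47.8, 47.3, 41.5 and 51.7 TPM, with Cd74, the invariant chain, at 14.2, 13.8, 12.6, 10.6 and 15.7 TPM. Complement genes summed to 333, 317, 258, 263 and 312 TPM, with C1qa at 75.1, 68.6, 61.6, 61.6 and 76.3 TPM, C4b at 44.6, 47.4, 33.1, 29.7 and 37.98 TPM and C3 at 7.77, 13.6, 5.08, 5.000 and 3.12 TPM, the last of these highest in control 2.

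Genes best known from liver were also highest in control 1. Alb, the serum albumin gene, was at 149, 53.9, 54.6, 35.9 and 36.02 TPM, Apoa1, of high-density lipoprotein, at 26.2, 8.26, 8.91, 3.48 and 5.91 TPM and Cyp2e1, a liver cytochrome, at 22.96, 8.85, 9.29, 4.73 and 3.86 TPM. The 17 genes of this list were chosen after values were seen, so counts over them were in part set by that choice. All were highest in control 1, and of the 16 with a mean count of at least 10, 15 had a CV above 0.3. Over all genes 7.1% were above that value, with 23.5% from 1 to 5 TPM and 4.53% from 5 to 20 TPM. Trf, transferrin, which oligodendrocytes and choroid plexus also make, was 65.1% of the sum at 350.2, 243, 290.3, 325 and 332 TPM and varied least. With Trf the CV of the sum was 0.322, and 0.0680 without control 1. The other 16 genes summed to 391.8, 124, 137, 80.5 and 92.4 TPM, a CV of 0.779, and 0.244 without control 1. The 12 major urinary protein genes, pheromone carriers made by liver, summed to 353, 84.1, 87.7, 55.3 and 77.6 TPM. They too were listed after values were seen. Each of the 11 that had a count was highest in control 1, and Mup10 had none. Without control 1 their CV was 0.191, against 0.946 with it. No library was at 0 for Alb. Whether liver and interferon genes share a source in control 1 was not tested.

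Chaperones were higher in controls 4 and 5. In the unfolded protein response, misfolded protein in the endoplasmic reticulum turns on chaperone genes through ATF6 and XBP1, which bind the endoplasmic reticulum stress element. The 17 genes of heat shock and this response summed to 4879.6, 4982, 4863, 5588 and 6011 TPM, highest in control 5 for 14 of 17, and 4 of 17 had a CV above 0.3, against 7.1% of all genes. Hspa5, the main chaperone of the reticulum, was at 199, 189, 197, 309 and 360.3 TPM. Sdf2l1, its partner, was at 7.81, 7.05, 7.95, 11.2 and 21.6 TPM, Pdia4, a disulfide isomerase, at 46.8, 37.6, 44.1, 62.7 and 65.8 TPM and Xbp1 at 72.9, 71.7, 70.2, 98.3 and 103 TPM. In these genes both controls 4 and 5 were above the other 3 libraries without overlap. Of the cytosolic heat shock genes, Hsp90aa1 was at 941, 978, 931, 1075 and 1123 TPM, Hspa1b at 10.99, 10.6, 10.1, 18.2 and 24.4 TPM and Hspb1 at 15.2, 8.49, 14.4, 15.4 and 30.9 TPM. Hspb1 was high in control 5 alone. Ddit3, of the apoptotic arm, did not follow, at 30.6, 26.3, 24.3, 28.9 and 29.9 TPM.

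Promoters of 3 chaperone genes are shown because they hold the element and their RNA was highest together in controls 4 and 5. Capitals mark the element (CCAAT, any 9 bases, CCACG) or its reverse complement, and the windows are Hspa5 at chr2:34771840-34772089 on the plus strand, Hsp90b1 at chr10:86705445-86705694 on the minus strand and Creld2 at chr15:88819396-88819645 on the plus strand.
Hspa5: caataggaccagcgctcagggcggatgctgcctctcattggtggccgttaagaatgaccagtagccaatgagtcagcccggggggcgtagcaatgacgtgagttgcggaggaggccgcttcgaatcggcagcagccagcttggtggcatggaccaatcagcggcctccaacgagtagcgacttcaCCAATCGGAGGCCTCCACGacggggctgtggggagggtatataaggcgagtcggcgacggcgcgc
Hsp90b1: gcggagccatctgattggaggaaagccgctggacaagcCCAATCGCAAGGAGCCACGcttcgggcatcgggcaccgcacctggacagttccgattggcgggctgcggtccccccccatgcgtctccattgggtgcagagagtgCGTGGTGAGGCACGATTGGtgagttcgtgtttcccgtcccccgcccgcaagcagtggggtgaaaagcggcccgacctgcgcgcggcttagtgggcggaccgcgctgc
Creld2: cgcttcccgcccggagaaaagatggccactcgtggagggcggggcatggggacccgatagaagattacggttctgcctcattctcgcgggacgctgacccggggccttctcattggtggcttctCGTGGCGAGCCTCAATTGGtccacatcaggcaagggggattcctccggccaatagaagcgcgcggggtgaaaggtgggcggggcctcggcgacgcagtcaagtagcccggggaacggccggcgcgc

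Of 14 listed genes with a window, these 3 held the element, against 0.130% of all genes with a window and 0.113% of all windows. Hsp90b1, a chaperone of the same compartment, was at 289, 298, 283, 353 and 391 TPM and Creld2 at 12.1, 13.9, 14.9, 17.02 and 17.8 TPM.

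Controls 5 and 3 stood apart in hormones and blood. Gh, growth hormone, was at 0.744, 6.67, 6.33, 19.9 and 50.8 TPM, Prl, prolactin, at 0.181, 2.82, 1.26, 2.01 and 16.96 TPM and Pomc, the precursor of corticotropin, at 2.49, 18.9, 2.51, 9.79 and 65.8 TPM. All 3 were highest in control 5 and lowest in control 1, and without control 5 the CV of the list's sum fell from 1.22 to 0.655. That list of 8 summed to 5.83, 29.4, 12.99, 34.8 and 138 TPM. Lhb, the beta chain of luteinizing hormone, did not follow, at 2.26, 0.713, 2.60, 2.77 and 2.26 TPM, lowest in control 2 and highest in control 4. The pituitary factor Pou1f1 was at 0.157, 0, 0, 0 and 0.162 TPM. Igkc, the kappa light chain, was at 83.5, 43.2, 34.2, 8.003 and 164 TPM, and Jchain, which joins secreted antibody, at 11.05, 6.35, 4.12, 2.82 and 19.8 TPM. Ighg2b was at 14.1, 1.19, 1.13, 0.294 and 87.8 TPM. These 3 were highest in control 5. Igha, the alpha chain, was not: it was at 19.5, 0.134, 19.1, 0.298 and 9.82 TPM, with controls 1 and 3 highest and control 5 between them and the rest. Ighm, the mu chain, was even at 32.5, 34.1, 33.3, 29.2 and 36.2 TPM. Hemoglobin genes were highest in control 3, with Hbb-bs at 29.5, 17.9, 102, 11.6 and 21.9 TPM and Hba-a2 at 29.6, 10.3, 70.5, 9.09 and 17.3 TPM.

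Genes of neuronal activity differed mainly in control 4. Immediate early genes rise within minutes of firing, and the 18 listed summed to 603, 660.0, 689.6, 515 and 627 TPM. Control 4 was the lowest library for 15 of 18 and control 3 the highest for 12. Fos was at 8.74, 9.23, 13.5, 4.12 and 9.02 TPM, Arc, which acts on synaptic AMPA receptors, at 59.6, 69.2, 75.1, 39.5 and 58.1 TPM, Egr1 at 53.3, 61.1, 63.2, 38.1 and 62.8 TPM and Npas4 at 4.57, 8.39, 9.93, 4.44 and 8.64 TPM. Others were even: Jun was at 60.1, 66.1, 59.7, 58.3 and 62.9 TPM and Nr4a3 at 43.2, 48.8, 45.98, 40.8 and 42.6 TPM. Of 14 with a promoter window, Dusp1 and Btg2 held the cyclic AMP element TGACGTCA, against 1.77% of all genes with a window and 1.55% of all windows. For Btg2 the bases after the start were not found in its transcripts, so where that window lies is uncertain.

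Clock genes, whose RNA cycles over the day, varied little. The 16 genes summed to 917, 918, 885, 918 and 932 TPM, a CV of 0.0192 (0.00800 without control 3). Of the 16, 0 were above 0.3, against 7.1% of all genes and 0.335% to 1.24% in the bins from 20 TPM up. Dbp, an output gene with a large daily swing in many tissues, was at 66.4, 70.9, 73.8, 65.5 and 69.9 TPM, Nr1d1 at 73.3, 74.1, 65.3, 68.5 and 75.7 TPM and Per1 at 56.00, 40.3, 69.9, 52.5 and 51.5 TPM. Genes that glucocorticoids induce differed more. They summed to 1405, 1368, 1589.7, 1674 and 1549 TPM, lowest in control 2 for 8 of 13 and highest in control 4 for 8. Sgk1, a kinase, was at 126, 68.3, 161, 141 and 98.6 TPM, Fkbp5, a receptor co-chaperone, at 44.1, 42.98, 39.4, 55.96 and 43.6 TPM and Plin4 at 8.002, 1.95, 5.90, 15.2 and 11.2 TPM. The metallothioneins Mt1 and Mt2 led the list at 662 ± 36.9 and 481 ± 46.6 TPM.

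Reactive astrocyte genes were highest in control 2 for 7 of 11. They summed to 388, 556, 351, 424 and 502 TPM, of which Gfap was 66.6%. Lcn2, a secreted iron-binding protein, split the libraries, at 1.58, 26.9, 0.764, 25.1 and 32.7 TPM: controls 2, 4 and 5 were at 25.1 TPM or more and controls 1 and 3 at 1.58 TPM or less. Serpina3n, a protease inhibitor of reactive astrocytes, was at 53.4, 65.6, 55.2, 64.3 and 57.9 TPM, with the same libraries above and below but a far smaller difference. Vim, an intermediate filament gene, did not follow, at 58.5, 59.2, 46.5, 45.7 and 49.9 TPM. Of genes that rise in microglia near plaques, Ctsd, a lysosomal protease, was at 462, 317, 463, 430.3 and 422 TPM, Spp1, osteopontin, at 29.1, 29.8, 9.001, 16.4 and 23.6 TPM, and Clec7a and Cst7 at 0.779 ± 0.604 and 0.552 ± 0.461 TPM. Hypoxia genes summed to 399, 378, 391, 449 and 428 TPM, with Vegfa, the vessel growth factor, at 38.2, 37.02, 36.8, 49.2 and 51.97 TPM and higher in controls 4 and 5. Imprinted genes, led by Snrpn at 769 ± 26.6 TPM, summed to 2106 ± 40.7 TPM, and collagens, led by Col25a1 at 44.7 ± 1.52 TPM, to 188 ± 14.1 TPM.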

How the data were processed

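Hippocampal RNA of 10 libraries was sequenced, and the 5 labelled control were used here. The deposited table gives, per the file header, a read count and a TPM value for each gene and library. StringTie 1.3.1 and RSEM appear, with no role, in the submitters' processing notes. Aligner, build and annotation were "not given in the sources used here". No library column of another series was found (0 columns). The authors' counts were used for spread and the authors' deposited TPM for levels, shares and sums.

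Counts were scaled with edgeR 4.0.16 (TMM factors) in R 4.3.3. The CV between libraries is the square root of the variance of scaled counts over the squared mean after the expected counting variance was subtracted, set to 0 where nothing remained. It was computed for genes with a mean scaled count of at least 10. Alternatives used DESeq2 1.42.0 size factors, total counts, other filters, edgeR's dispersion, the CV of TPM, and each library left out in turn. Sums without Enpp2 or Trf were added after seeing the data. Tables and figures were made with Python 3.11.15, numpy 2.4.6, pandas 2.3.3, scipy 1.17.1 and matplotlib 3.10.9. The estimate of spread was tested on simulated counts. There was 1 group and so no test between groups. Totals of 15051882 to 17643921 counts set the precision, and intervals and limits from counts cover counting error only.

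Genes were named by rule: the 30 highest by mean TPM, the 25 with the largest CV at 5 TPM or more and the 15 with the smallest at 20 TPM or more (predicted genes left out), up to 4 highest and up to 2 most variable members of each list, members at 0, all members of the receptor, channel and cytoskeleton families, and Mapt, Map2, App, Apoe, Gfap and Ttr. Some genes that the rule names are not reported here. The 884 genes tied at a CV of 0 were ordered by mean TPM. Members and lists were chosen with earlier results of these data known. The lists of liver, major urinary protein, pituitary, muscle, immunoglobulin, GTPase and calmodulin genes, the promoters printed, and list members named outside the rule for their known role were chosen after values were seen. Promoter windows are from RefSeq (GRCm38.p6), and positions of genes are from GENCODE M21, where 21804 of 21956 identifiers were found.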

Additional observations from a re-analysis of the deposited data

Results flagged for a closer look

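A library was singled out where its gap to the nearest of the other 4 exceeded 0.71 of the whole range. Over 372 sets of values (78 list sums and 294 genes named in the text), 39 had such a library. Chance gives about 5% (1 in 20) for independent sets chosen without regard to spread. The sets here overlap and many were named for their spread, so the count cannot be read against that share. The library was control 1 in 12, control 2 in 12, control 3 in 6, control 4 in 2 and control 5 in 7.

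Control 1 stood highest in the summed TPM of interferon genes (483), liver genes (742) and major urinary proteins (353). It also stood highest in TPM of Irf7 (17.3), Ifitm3 (73.5), Rtp4 (20.4), Stat2 (20.98), Gbp3 (20.6), Alb (149), Apoa1 (26.2), Cyp2e1 (22.96) and Col3a1 (10.2).

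Control 2 stood lowest in the sums of endothelial genes (881) and serotonin receptors (102), and in TPM of Igf2 (37.9), Cdkn1c (3.35), Tuba1c (2.37), Lhb (0.713) and Ctsd (317). It stood highest in the sum of presynaptic genes (10756) and in TPM of Sst (404), Vamp2 (1020.0), Cst7 (1.35) and Snrpn (817). The sum of choroid genes is not among these sets, since its gap in control 2 stayed under that share of the range. The endothelial and serotonin receptor sums are led by Bsg and Htr2c, each lowest in control 2. For the endothelial sum the CV was 0.0730, but 0.0394 without Bsg and 0.0217 without control 2. For serotonin receptors it was 0.122, but 0.0241 without Htr2c and 0.0301 without control 2.

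Control 5 stood highest in the sum of pituitary genes (138) and in TPM of Prl (16.96), Pomc (65.8), Ighg2b (87.8), Sdf2l1 (21.6), Calb2 (59.1) and Eomes (1.82). Control 3 stood highest in the sum of red blood cell genes (245), in Hbb-bs (102 TPM) and in Drd4 (0.250 TPM), and lowest in Mpped1 (134 TPM), Grin2c (18.3 TPM) and Grm4 (4.36 TPM). Control 4 stood highest in Fkbp5 (55.96 TPM) and Scn4b (15.3 TPM).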

How the results depend on the processing

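No paired analysis was possible because the 5 libraries form 1 group and no groups were compared. The number of genes counted as detected, by other cut-offs, by CPM and with each library left out, stayed between 13231 and 14766 over the alternatives run. Mean sums of the 27 cell type lists were recomputed with each library left out and with TMM-scaled TPM. Only that of red blood cells moved by over 1.5 times, to 47.6 TPM without control 3, and choroid plexus ran from 5129 to 7332 TPM when each library was left out. The 100 most abundant genes held 16.2% without mitochondrial genes and 21.99% by CPM, and mitochondrial genes held 10.2% by CPM. The median CV was 0.0944 by edgeR's dispersion and 0.0959 as the CV of TPM. The number of genes with a CV above 0.3 was 3316 with no filter, 324 with a mean count of at least 50 and 1637 as the CV of TPM, and 821 to 1064 when each library was left out. By counts, which are not divided by gene length, the family shares moved by more than 1 SD to 42.6% for Gria1, 23.2% for Grin1, 44.4% for Grik5, 61.0% for Grm5, 64.2% for Gabbr1, 72.7% for Chrm1, 29.1% for Adra1d, 45.4% for Cacna1e, 36.8% for Hcn2, 50.9% for Syt1, 32.3% for Atp1b1, 73.0% for Camk2a, 21.3% for Tuba1a, 21.9% for Map2 and 29.6% for Cck, and for Apoe to 51.1% of lipid carriers and 15.4% of the tau and amyloid list. Of 548 recomputed CVs of list sums, 61 moved by over 1.5 times, and those of lists whose CV is printed stand beside it. Genes below 5 TPM rest on few counts, and their spread is the least certain.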
